A study of Mus musculus with 16 samples.

Results

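The 8 genes described here are the lysyl oxidases Lox, Loxl1, Loxl2, Loxl3 and Loxl4, the procollagen C-proteinase Bmp1 and the proteinase enhancers Pcolce and Pcolce2. They were chosen by symbol, and all 8 were found among the 49568 gene symbols of the count table. RNA-seq was performed on single deep digital flexor tendons of male mice aged 9 to 11 weeks, in 16 libraries with 4 per group. The groups were uninjured C57BL/6J (C57) tendon, C57 tendon 7 days post injury (dpi), uninjured MRL/MpJ (MRL) tendon and MRL tendon at 7 dpi. The injury was a partial cut across 50% of the tendon width in a hind paw digit, and no transgene or deletion separated the groups. Surgery was done under ketamine and xylazine, with buprenorphine given afterwards against pain. The sources used here do not say that uninjured mice received these drugs, so their effect and that of the injury cannot be told apart. MRL/MpJ mice are inbred and are studied because several of their tissues heal with little scar, and C57BL/6J is a widely used inbred strain. The sheath and the tissue around the tendon were not removed, so each library holds RNA of every cell type at the site, and in such bulk samples fewer cells of a type and less RNA per cell cannot be told apart.

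Collagen is secreted as procollagen, with a propeptide at each end that keeps it soluble. BMP1 cuts off the C-terminal propeptide, PCOLCE and PCOLCE2 bind that propeptide and speed the cut, and the trimmed molecules then assemble into fibrils. Lysyl oxidases are secreted copper enzymes that oxidize lysines of collagen and elastin to aldehydes, from which the covalent cross-links form that give tendon its tensile strength. BMP1 also cleaves the propeptide of LOX itself, so that both steps share an enzyme. LOX and LOXL1 carry a propeptide, whereas LOXL2, LOXL3 and LOXL4 carry scavenger receptor cysteine-rich domains in its place.

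The total count of a library was 12552424 to 23741648, with injured MRL libraries the deepest (18524170 or more). The injured libraries carry names and are numbered here in listed order, so that injured C57 replicates 1 and 2 are BI-181 and BI-183, and replicates 3 and 4 are BI-184 and BI-185. Injured MRL replicates 1 and 2 are BI-270 and BI-272, and replicates 3 and 4 are BI-274 and BI-275. Both uninjured libraries numbered 4 went against their strain labels. Genes were picked that had at least 2 CPM (the usual per-million scale, on library sizes adjusted by TMM) in all 4 injured libraries of one strain and under 0.15 CPM in all 4 of the other, which gave 11 genes seen in C57 and 28 seen in MRL. At 0.5 CPM or more, the library labelled uninjured C57 replicate 4 had 1 of the 11 and 27 of the 28, and the library labelled uninjured MRL replicate 4 had 11 of the 11 and 0 of the 28. The other uninjured C57 libraries had 10 or 11 of the 11 and 0 of the 28, and the other uninjured MRL libraries had 1 or 2 of the 11 and 27 or 28 of the 28. The library labelled uninjured C57 replicate 4 also held 102361 CPM of 12 epidermal markers, against at most 983 CPM in any other library. BI-181 held 64178 CPM of 12 skeletal muscle markers and BI-183 held 1878 CPM, against at most 20.0 CPM elsewhere. All samples were kept in the groups of their labels. The injury responses of the 8 genes are also given without the uninjured library numbered 4, as are other results where stated. The tenocyte markers Scx, Tnmd, Mkx, Thbs4, Kera, Chodl and Cilp2 summed to between 1293 and 9345 CPM, with 6 or 7 of the 7 detected in every library.

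The catalytic core shared by the lysyl oxidases binds copper through histidines. The coding bases of that stretch are shown because they show how alike Loxl1, Loxl2, Loxl3 and Loxl4 are at their copper site. The stretch of Lox is not shown here. They are 33 bases of the sense strand, 5′ to 3′, from the GENCODE M21 transcripts of GRCm38, spliced across 1 exon junction each, with the 4 histidine codons in capitals.
Loxl1: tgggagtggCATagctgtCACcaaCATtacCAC
Loxl2: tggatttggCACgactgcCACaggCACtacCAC
Loxl3: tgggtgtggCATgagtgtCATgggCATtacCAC
Loxl4: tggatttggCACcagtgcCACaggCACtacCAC
The Loxl1 stretch starts at codon 476 of 607 and joins exons 3 and 4 of 7 (chr9:58293720-58294381, minus strand). That of Loxl2 starts at codon 622 of 776 and joins exons 10 and 11 of 14 (chr14:69682316-69689037, plus strand). That of Loxl3 starts at codon 602 of 754 and joins exons 10 and 11 of 14 (chr6:83049995-83050125, plus strand), and that of Loxl4 starts at codon 607 of 758 and joins exons 11 and 12 of 15 (chr19:42598807-42599899, minus strand). Loxl2 and Loxl4 were identical at 31 of the 33 bases and 10 of the 11 residues, whereas the other pairs among these 4 genes shared 21 to 25 bases and 8 residues. Over whole transcripts the longest run shared by any 2 of the 8 genes was 32 bases, between Lox and Loxl1, against reads of 100 nt.

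The 8 genes lie on 6 chromosomes. Lox is on chromosome 18 (minus strand), Loxl1 at chr9:58287738-58313186 (minus), Loxl2 at chr14:69609068-69695834 (plus), Loxl3 at chr6:83034173-83052562 (plus) and Loxl4 at chr19:42593982-42612813 (minus). Bmp1 is at chr14:70474558-70520234 (minus), Pcolce at chr5:137605103-137613784 (minus) and Pcolce2 at chr9:95637601-95698096 (plus). The annotated exons of Loxl1, Loxl4, Bmp1 and Pcolce2 overlap no exon of another gene. Loxl3 shares 535 exon bases with the oppositely oriented protease gene Htra2, Loxl2 shares 301 with the antisense gene Gm27177 and 7 with Mir6950, Pcolce shares 112 with Fbxo24 and with the antisense gene Gm36266, and Lox shares 30 with an antisense gene. Fbxo24 and Mir6950 lie on the same strand as Pcolce and Loxl2, so strand cannot separate reads over those shared bases. The strand setting of the counting is not given, so reads shared with the oppositely oriented genes may not have been separated either.

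Lox, Pcolce and Pcolce2 had the highest levels per length in every group. Levels of different genes are compared here only as CPM per kilobase of exon, and all 8 genes passed the filter on low counts in each of the 5 comparisons. In uninjured C57 tendon Pcolce2 had 241 ± 104 CPM per kilobase (SD, n = 4), Pcolce 213 ± 42.9 and Lox 195 ± 76.4. Without the library numbered 4 these were 293 ± 12.2, 233 ± 16.4 and 232 ± 17.8 (SD, n = 3), so that Pcolce2 stood above the other two and Pcolce and Lox did not differ beyond their spread. The other 5 genes lay between 4.19 ± 2.49 (Loxl1) and 15.1 ± 5.31 CPM per kilobase (Loxl3) in the 4 libraries. In uninjured MRL tendon the order was Pcolce (354 ± 95.7), Pcolce2 (323 ± 44.1) and Lox (193 ± 35.9), and the lowest was again Loxl1 (3.69 ± 1.93). Without its library numbered 4 the leading values were 399 ± 39.2, 320 ± 53.5 and 176 ± 9.25 (SD, n = 3). In injured tendon Lox had the highest mean per length in both strains, at 311 ± 186 CPM per kilobase in C57 and 496 ± 115 in MRL, ahead of Pcolce (229 ± 77.2 and 414 ± 95.2) and Pcolce2 (141 ± 47.5 and 193 ± 48.6). Within either injured group Lox and Pcolce did not differ beyond their spread. Loxl1 was the lowest of the 8 in both uninjured groups, the fourth in injured C57 tendon (37.0 ± 19.0) and the seventh in injured MRL tendon (10.8 ± 1.5).

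**Figure D1:**
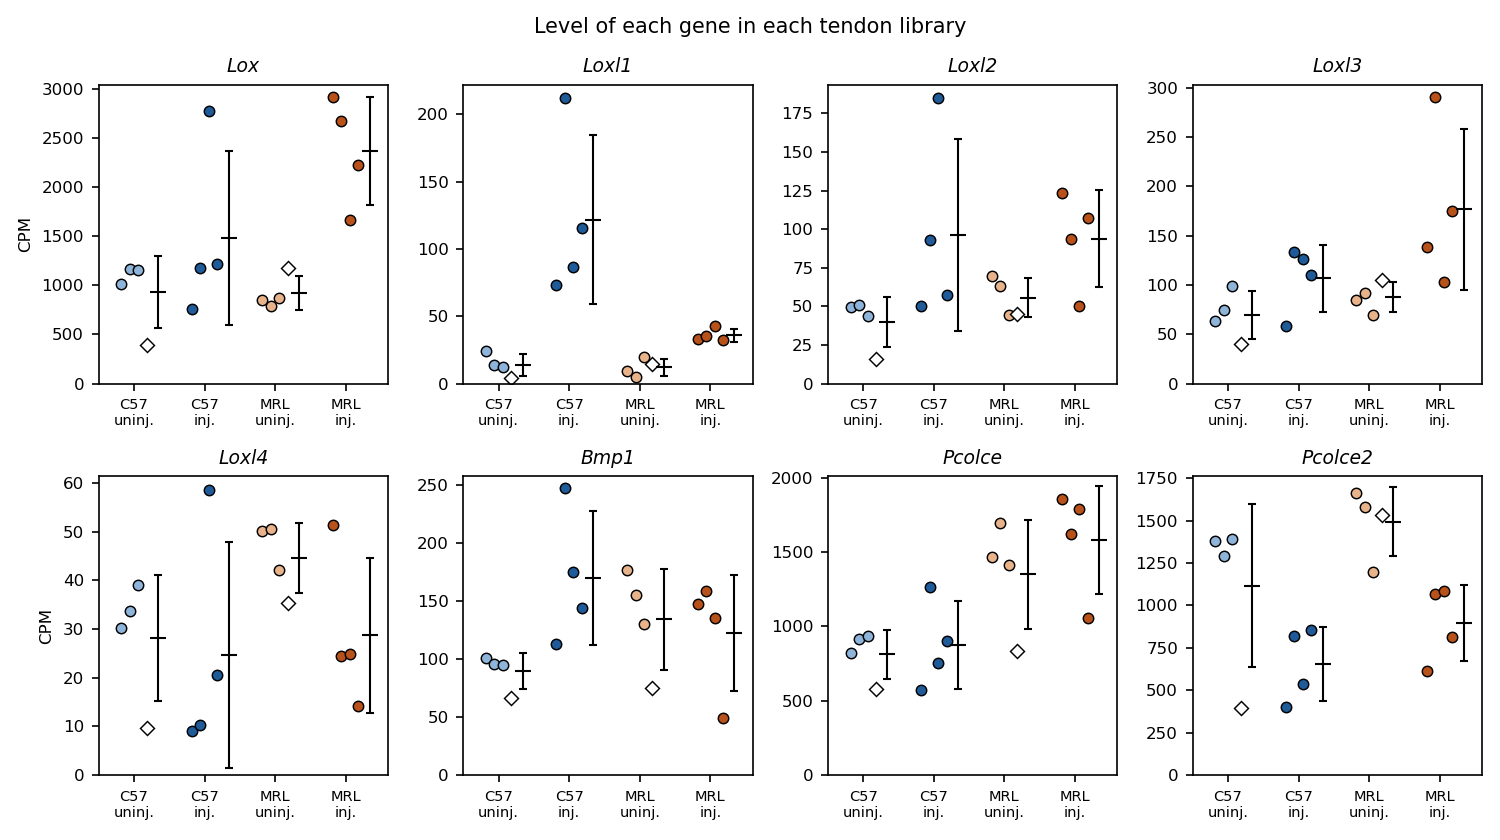
Level of each of the 8 genes in CPM (linear axes from 0) in each tendon library, by group. Circles are libraries, open diamonds are the uninjured libraries numbered 4, and the bar beside each group is its mean ± SD over the 4 libraries. The 4 injured C57 libraries lie above every other library for Loxl1, and the 4 injured MRL libraries lie above all uninjured libraries for Lox.

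LOX, the founding member of the family and its most abundant transcript here, rose after injury in MRL tendon. Its level in uninjured MRL tendon was 856, 789 and 872 CPM in replicates 1 to 3 and 1174 CPM in the library labelled replicate 4. In injured MRL tendon it was 2916 CPM in BI-270, 2675 in BI-272, 1665 in BI-274 and 2228 in BI-275. The groups did not overlap. The log2 fold change was 1.37 (SE 0.22, 2.58-fold, edgeR quasi-likelihood test with Benjamini-Hochberg adjusted p = 0.00461), and without the library numbered 4 it was 1.52 (SE 0.22, adjusted p = 0.00678). The call was kept in all 8 fits that left out 1 library. In C57 tendon Lox was 1013, 1166 and 1152 CPM in uninjured replicates 1 to 3, 393 CPM in the library labelled replicate 4, and 762, 1175, 2782 and 1216 CPM in injured replicates 1 to 4. Those groups overlapped, with a single injured library (BI-184) far above the rest. The log2 fold change was 0.62 (SE 0.45, adjusted p = 0.552), or 0.38 (SE 0.38, adjusted p = 0.620) without the library numbered 4.

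Loxl1, whose product is tied to elastic fibre assembly and binds elastin-associated proteins, had the largest response of the family in C57. Uninjured C57 tendon had 24.4, 14.1 and 12.3 CPM in replicates 1 to 3 and 4.47 CPM in the library labelled replicate 4, against 73.6, 212, 86.6 and 115 CPM in injured replicates 1 to 4. Every injured library lay above every uninjured library. Loxl1 rose by 3.10 on the log2 scale (SE 0.52, 8.56-fold, adjusted p = 0.0365 by the edgeR quasi-likelihood test). Loxl1 was the 1 member called of 8 in this comparison, where 1.07% of the 14424 genes tested were called. A call needed an absolute log2 fold change over 1 together with an adjusted p under 0.05. Without the library numbered 4 the value was 2.81 (SE 0.42, 7.00-fold, adjusted p = 0.00849). Leaving out any other library, which leaves a group of 3, moved the adjusted p to between 0.0515 and 0.117, so 7 of the 8 leave-out fits made no call while the log2 fold change stayed between 2.73 and 3.52.

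In MRL tendon Loxl1 rose from 9.41, 5.12 and 19.9 CPM in uninjured replicates 1 to 3 and 14.1 CPM in the library labelled replicate 4 to 32.9, 35.0, 42.9 and 32.1 CPM in injured replicates 1 to 4. These groups also did not overlap. The log2 fold change was 1.56 (SE 0.36, 2.95-fold, adjusted p = 0.0220), or 1.66 (SE 0.41, adjusted p = 0.0415) without the library numbered 4. The call was lost without BI-272 and without uninjured replicate 1, with adjusted p between 0.0521 and 0.0693. Of the 8 members, 3 were called in MRL tendon (Lox, Loxl1 and Loxl3, all higher), where 7.41% of the 14274 genes tested were called. Without the library numbered 4, 2 members were called (Lox and Loxl1), against 6.11% of all genes tested.

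Loxl2 and Loxl3 belong to the branch with scavenger receptor domains. LOXL2 cross-links collagen IV of basement membranes as well as fibrillar collagen. Loxl2 lay at 49.4, 51.0 and 43.4 CPM in uninjured C57 replicates 1 to 3, 15.6 CPM in the library labelled replicate 4, and 49.9, 92.7, 185 and 57.3 CPM in injured replicates 1 to 4. Its log2 fold change of 1.23 (SE 0.48, adjusted p = 0.276) did not pass the test. In MRL tendon Loxl2 was 69.6, 63.4, 44.7 and 45.2 CPM in uninjured replicates 1 to 4 and 124, 93.5, 50.4 and 107 CPM in injured replicates 1 to 4, with a log2 fold change of 0.76 (SE 0.27, adjusted p = 0.0986). The overlap lay in BI-181 in C57 and in BI-274 in MRL. Without the libraries numbered 4 the values were 0.96 (SE 0.42, adjusted p = 0.230) in C57 and 0.68 (SE 0.30, adjusted p = 0.195) in MRL.

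Loxl3 was 63.3, 74.1 and 99.3 CPM in uninjured C57 replicates 1 to 3, 40.5 CPM in the library labelled replicate 4, and 58.0, 133, 126 and 110 CPM in the 4 injured C57 libraries in the order above. The groups overlapped through BI-181, the library richest in skeletal muscle markers, and the log2 fold change was 0.57 (SE 0.31, adjusted p = 0.419), or 0.39 (SE 0.27, adjusted p = 0.458) without the library numbered 4. In MRL tendon Loxl3 was 84.6, 91.5 and 69.0 CPM in uninjured replicates 1 to 3, 105 CPM in the library labelled replicate 4, and 139, 291, 103 and 175 CPM in injured replicates 1 to 4. It rose by 1.02 on the log2 scale (SE 0.29, 2.02-fold, adjusted p = 0.0469). That call was at the edge of both thresholds: 7 of the 8 leave-out fits made no call (adjusted p 0.0611 to 0.126 in those fits), among them the fit without the library numbered 4 (1.13, SE 0.33, adjusted p = 0.0683).

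Loxl4 was the 1 lysyl oxidase with a negative log2 fold change in both strains, and in neither did it pass the test. It lay at 30.2, 33.8 and 39.1 CPM in uninjured C57 replicates 1 to 3 and 9.57 CPM in the library labelled replicate 4. In injured C57 tendon it was 9.06 and 10.2 CPM in BI-181 and BI-183, 20.7 CPM in BI-185 and 58.6 CPM in BI-184, so the injured libraries fell on both sides of the uninjured ones. The log2 fold change was -0.24 (SE 0.63, adjusted p = 0.903) in C57 and -0.63 (SE 0.34, adjusted p = 0.252) in MRL, and -0.53 and -0.71 without the libraries numbered 4 (adjusted p = 0.671 and 0.272). In C57 the sign rested on single libraries, with values up to 0.06 when BI-181 or BI-183 was left out. In MRL tendon Loxl4 was 50.2, 50.5, 42.1 and 35.4 CPM in uninjured replicates 1 to 4 and 51.3, 24.4, 24.8 and 14.1 CPM in injured replicates 1 to 4. BI-270 lay above the uninjured libraries and the other 3 injured libraries below them. Without BI-270 the log2 fold change was -1.09 and Loxl4 passed the test (adjusted p = 0.0375).

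**Figure D2:**
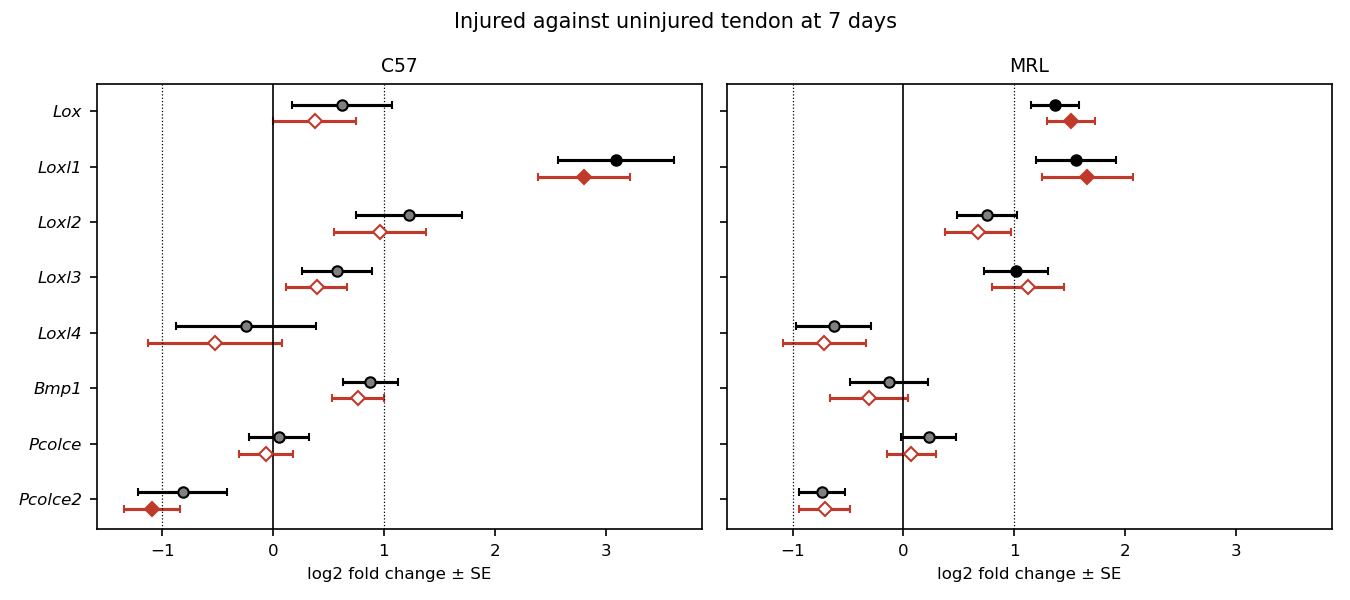
Log2 fold change ± SE (edgeR) of each gene in injured against uninjured tendon, in C57 (left) and MRL (right). Circles use all 8 libraries of a strain and diamonds leave out the uninjured library numbered 4, filled black or red where called, and dotted lines mark log2 fold changes of -1 and 1. Loxl1 is called in both strains (3.10 and 1.56), Lox is called in MRL (1.37), and Pcolce2 lies below 0 in both (-0.82 and -0.74).

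The lysyl oxidase transcripts summed to 228 ± 88.4 CPM per kilobase in uninjured C57 tendon (272 ± 19.3 without the library numbered 4), 394 ± 204 in injured C57, 237 ± 35.9 in uninjured MRL (219 ± 7.82 without the library numbered 4) and 570 ± 131 in injured MRL (SD, n = 4 or 3). Lox made up between 68.6% and 89.0% of this sum in every library. The share of Loxl1 was between 1.31% and 2.96% in uninjured C57 tendon and between 0.739% and 2.72% in uninjured MRL tendon. It was 10.8% in BI-181, 17.9% in BI-183, 3.84% in BI-184 and 10.6% in BI-185, above every library of the other groups, while in injured MRL tendon it stayed between 1.46% and 3.26%. The share of Loxl4 was 2.33% to 3.27% and 2.90% to 5.71% in the uninjured groups and at most 2.03% in any injured library. Without the libraries numbered 4 the uninjured shares of Loxl4 were 2.84% to 3.27% in C57 and 4.51% to 5.71% in MRL. The composition of the sum is a description over the same CPM values and was not tested.

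**Figure D3:**
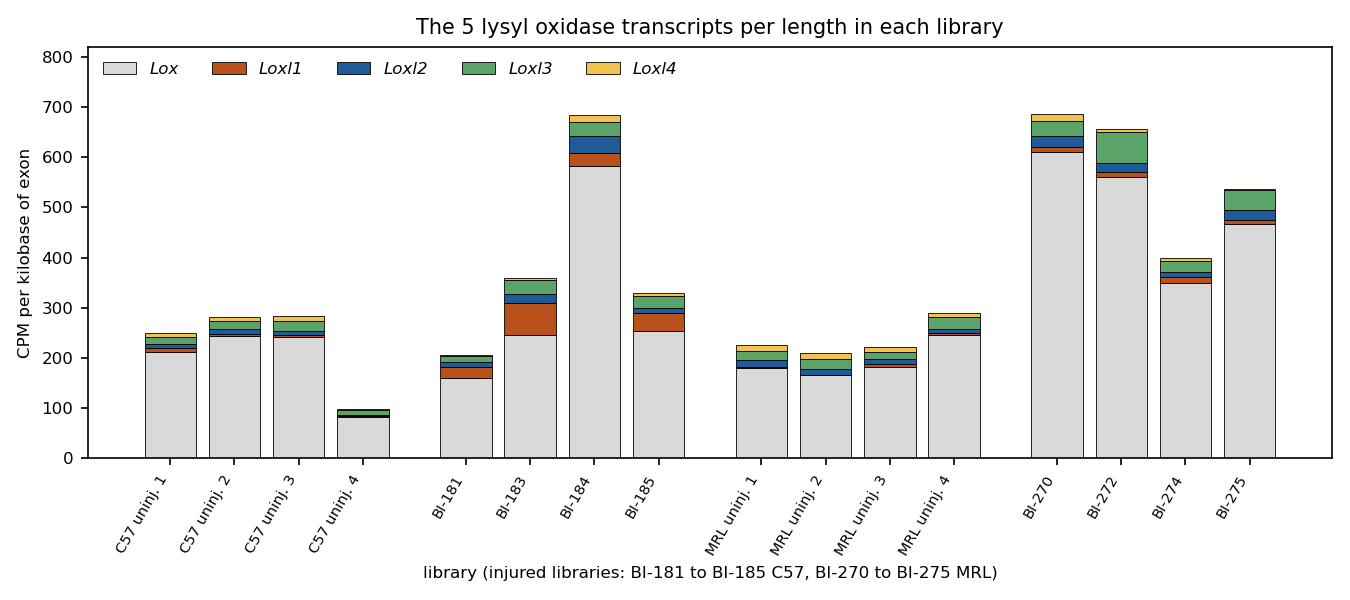
Summed level of the 5 lysyl oxidase transcripts in each library, in CPM per kilobase of exon, stacked by gene and grouped by strain and injury (uninjured libraries first in each strain). Lox is the largest block everywhere, the Loxl1 block is visible as 3.84% to 17.9% of the bar in the 4 injured C57 libraries, and the library labelled uninjured C57 replicate 4 has the shortest bar (97.7 CPM per kilobase).

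BMP1 removes the C-propeptides of procollagens I, II and III and activates LOX. In C57 tendon Bmp1 was 101, 96.1 and 95.3 CPM in uninjured replicates 1 to 3, 66.4 CPM in the library labelled replicate 4, and 113, 248, 175 and 144 CPM in injured replicates 1 to 4. The groups did not overlap. Bmp1 was not called, at 0.88 (SE 0.25, 1.83-fold, adjusted p = 0.152 by edgeR), and 0.77 (SE 0.24, adjusted p = 0.0996) without the library numbered 4. In MRL tendon Bmp1 was 177, 156 and 131 CPM in uninjured replicates 1 to 3, 75.5 CPM in the library labelled replicate 4, and 147, 159, 136 and 48.9 CPM in injured replicates 1 to 4. The groups overlapped, and the log2 fold change of -0.13 (SE 0.35, adjusted p = 0.842) was 0.13 without BI-275 and -0.31 (adjusted p = 0.626) without the library numbered 4.

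Both enhancers of BMP1 were abundant before injury. Pcolce was 820, 917 and 938 CPM in uninjured C57 replicates 1 to 3, 580 CPM in the library labelled replicate 4, and 573, 1269, 754 and 901 CPM in the injured C57 libraries. It was 1465, 1695, 1414 and 835 CPM in uninjured MRL replicates 1 to 4 and 1856, 1622, 1790 and 1055 CPM in the injured MRL libraries. Its log2 fold change with injury was 0.06 (SE 0.27, adjusted p = 0.949) in C57 and 0.23 (SE 0.25, adjusted p = 0.584) in MRL, and neither passed the test. Without the libraries numbered 4 the values were -0.067 and 0.070.

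Pcolce2 had lower means after injury in both strains. In MRL tendon it was 1664, 1580, 1200 and 1535 CPM in uninjured replicates 1 to 4 and 615, 1068, 1085 and 811 CPM in injured replicates 1 to 4. The groups did not overlap, and the log2 fold change was -0.74 (SE 0.21, adjusted p = 0.0465), which passed the adjusted p-value but not the minimum fold change. Without the library numbered 4 it was -0.71 (SE 0.23, adjusted p = 0.0976). In C57 tendon Pcolce2 was 1381, 1291 and 1395 CPM in uninjured replicates 1 to 3 and 400, 820, 539 and 853 CPM in injured replicates 1 to 4. The library labelled uninjured C57 replicate 4, at 398 CPM, lay below all 4 injured libraries and apart from its group. With it the log2 fold change was -0.82 (SE 0.40, adjusted p = 0.375), and without it -1.09 (SE 0.25, 2.13-fold lower, adjusted p = 0.0358), so that 2 of the 8 members (Loxl1 and Pcolce2) were called, against 5.01% of all genes tested.

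Over the 8 members the median log2 fold change with injury was 0.60 in C57 and 0.49 in MRL, against -0.05 and -0.03 over all genes tested, with 6 and 5 of the 8 above 0. Without the uninjured libraries numbered 4 the medians of the members were 0.38 and 0.37, against -0.006 and -0.009 over all genes tested.

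The strain-by-injury interaction asks whether a response differed between MRL and C57. None of the 8 members passed it, and neither did any of the 15947 genes tested (0% called by edgeR, with 1939 genes at an unadjusted p under 0.05 and 198 genes called by DESeq2). The member with the smallest p was Loxl1, with an interaction of -1.59 on the log2 scale, MRL minus C57 (SE 0.64, adjusted p = 0.358). Bmp1 came next, at -1.06 (SE 0.47, adjusted p = 0.395), and the remaining members had adjusted p of 0.638 or more. Without both uninjured libraries numbered 4 the Loxl1 difference was -1.22 (SE 0.59, adjusted p = 0.489), that of Bmp1 -1.14 (SE 0.46, adjusted p = 0.403) and that of Lox 1.08 (SE 0.46, adjusted p = 0.436). A different response of these genes in the strains was thus not detected, which does not show that their responses were equal.

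At 7 dpi the strains were also set directly against each other. Loxl1 was lower in injured MRL than in injured C57 tendon by 3.48-fold (log2 fold change -1.80, SE 0.31, adjusted p = 0.0136 by edgeR), the 4 MRL libraries lying between 32.1 and 42.9 CPM and the 4 C57 libraries between 73.6 and 212 CPM. It was the 1 member called, where 3.43% of the 14626 genes tested were called (227 higher and 275 lower in MRL, or 183 and 373 on total counts in place of TMM). With 1 library left out the number of genes called ranged from 231 to 481, with 231 without BI-185, 255 without BI-272 and 286 without BI-183. More genes were higher than lower in MRL without BI-185 (124 and 107), without BI-270 (233 and 191) and without BI-272 (131 and 124). The call was lost without BI-272 (adjusted p = 0.0549) and in one fit of all 16 libraries (adjusted p = 0.0547), and was kept in the other 7 fits with 1 library left out. Of the other members, Pcolce had the smallest p, with a log2 fold change of 0.83 (SE 0.28, adjusted p = 0.131), and those of Lox (0.65), Loxl3 (0.70) and Pcolce2 (0.42) were positive but did not pass. Bmp1 was at -0.50 (SE 0.36, adjusted p = 0.462) and stayed negative with each library left out. The values for Loxl2 (-0.06, SE 0.41) and Loxl4 (0.20, SE 0.59) changed sign with single libraries left out. This comparison uses neither of the uninjured libraries numbered 4, and it shares its libraries with the injury comparisons of both strains.

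Markers of several cell types moved with the same contrast. The 8 endothelial markers summed to between 120 and 196 CPM in injured C57 tendon and between 1.51 and 32.1 CPM in injured MRL tendon, with all 8 detected in each C57 library and 3 detected in BI-270. The 6 smooth muscle and myofibroblast markers summed to between 115 and 3947 CPM in injured C57 and between 28.1 and 75.7 CPM in injured MRL. The 3947 CPM were in BI-181, the library richest in skeletal muscle markers, and 2737 CPM of them were Des, a gene that skeletal muscle also expresses. The summed tenocyte markers were lower in injured C57 (2506 to 4825 CPM) than in injured MRL tendon (5248 to 9345 CPM), and most of either sum was Thbs4 (2001 to 3836 and 4269 to 7454 CPM). Scx also did not overlap (50.4 to 63.6 and 92.1 to 184 CPM), whereas Tnmd, Mkx, Kera, Cilp2 and Chodl overlapped, with Chodl at 2.85 to 35.6 CPM in C57 and 0 to 4.12 CPM in MRL. The 10 macrophage markers overlapped between the strains (4633 to 8433 and 3628 to 6567 CPM) and lay above the uninjured libraries (747 to 1668 and 962 to 1587 CPM). The 8 markers of cycling cells summed to between 60.8 and 378 CPM in injured C57 and between 219 and 825 CPM in injured MRL tendon, and the 7 cartilage markers to 64.8 to 117 CPM and 167 to 865 CPM. In the uninjured C57 and MRL groups the sums were 7.84 to 239 and 7.42 to 14.2 CPM for cycling cells, 19.9 to 98.1 and 1.99 to 80.0 CPM for endothelium, and 25.5 to 558 and 30.0 to 66.2 CPM for smooth muscle and myofibroblasts. The uninjured sums were 1293 to 3601 and 3648 to 4099 CPM for tenocytes and 143 to 253 and 394 to 491 CPM for cartilage. The 239 CPM were in the library labelled uninjured C57 replicate 4, and the other 3 uninjured C57 libraries had 7.84 to 10.8 CPM. Between injured and uninjured libraries, the endothelial and cartilage sums did not overlap in C57, and neither did the cycling sums in MRL, or in C57 once that library was left out. Tenocyte sums did not overlap in MRL, where Thbs4 was higher in injured libraries (1872 to 2762 CPM uninjured), Cilp2 (977 to 1695 CPM uninjured, 139 to 962 injured) and Chodl (9.73 to 11.9 CPM uninjured) were lower, and Scx, Tnmd, Mkx and Kera overlapped. The part of these cell types in the Loxl1 difference and in the injury responses was not tested. Among the C57 libraries BI-184 had the lowest sums of endothelial and of smooth muscle markers of the 4 injured ones, and the highest Lox, Loxl2 and Loxl4.

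Before injury the 8 members were not called between the strains, as was the case for every gene tested (0% of 14055, with 1106 genes at an unadjusted p under 0.05 and 104 called by DESeq2). With both libraries numbered 4 left out, 497 genes were called (3.48% of 14274), again with no member among them. In that fit 3 members passed the adjusted p-value with smaller changes, where 5.5% of all genes did: Pcolce was higher in MRL (log2 fold change 0.76, SE 0.11, adjusted p = 0.00267), Bmp1 was higher in MRL (0.65, SE 0.13, adjusted p = 0.0191) and Lox was lower in MRL (-0.42, SE 0.10, adjusted p = 0.0382). For each of these the 3 MRL and 3 C57 libraries did not overlap. With all 8 libraries the values were 0.71 (SE 0.25, adjusted p = 0.621), 0.56 (SE 0.25, adjusted p = 0.631) and -0.03 (SE 0.31, adjusted p = 0.987). Loxl4 also did not overlap between the 3 and 3 libraries and was at 0.46 (SE 0.17, adjusted p = 0.185). The share of all genes without such overlap was not counted, in this comparison or in the others. Marker sums also differed between the uninjured strains without overlap, at 23.7 to 47.0 CPM in C57 and 78.8 to 230 CPM in MRL for the 6 bone markers. Nearly all of this was Ibsp (20.6 to 46.4 and 75.2 to 227 CPM), while Mepe was at 0 in every uninjured library and Sp7 at 0 in every uninjured C57 library. The cartilage and tenocyte sums given above did not overlap between the uninjured strains either, and the part of these cell types in the values of Pcolce, Bmp1 and Lox was not tested.

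**Figure D4:**
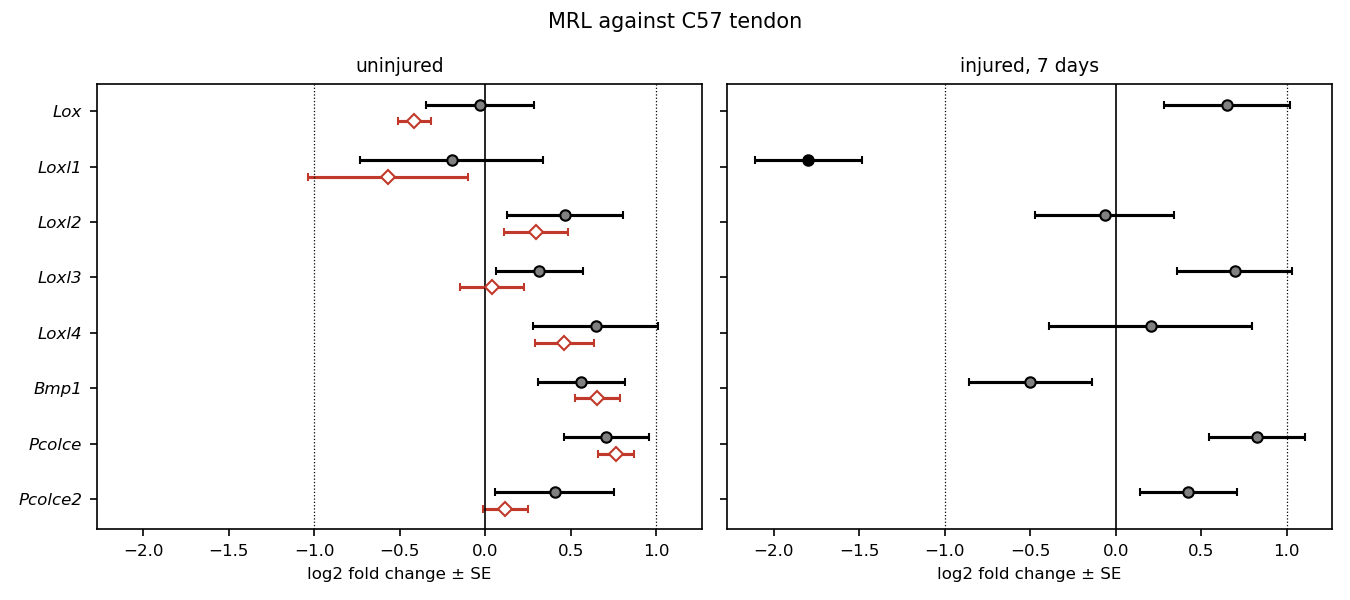
Log2 fold change ± SE (edgeR) of each gene in MRL against C57 tendon, uninjured (left) and at 7 dpi (right). Circles use all 8 libraries, filled black where called, and diamonds leave out both uninjured libraries numbered 4 (none called). Loxl1 at 7 dpi (-1.80) is the 1 call, and Pcolce lies above 0 in both panels (0.71 and 0.83).

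Because BMP1, its enhancers and the lysyl oxidases act on collagen, their levels were also taken relative to Col1a1, which encodes the main chain of type I collagen. Col1a1 ranged from 2759 to 6348 CPM in uninjured C57, 4120 to 10814 in injured C57, 3324 to 10333 in uninjured MRL and 6866 to 19013 CPM in injured MRL tendon. It did not pass the injury test in either strain (log2 fold change 0.62, SE 0.36, adjusted p = 0.446 in C57 and 0.74, SE 0.39, adjusted p = 0.247 in MRL, or 0.43 and 0.51 without the libraries numbered 4). On the scale of log2 CPM minus log2 CPM of Col1a1, Pcolce2 had -2.22 ± 0.43 in uninjured and -3.53 ± 0.62 in injured C57, and -2.16 ± 0.72 in uninjured and -3.71 ± 0.51 in injured MRL tendon (SD, n = 4). Loxl4 likewise had lower means after injury, -7.53 ± 0.45 and then -8.60 ± 1.01 in C57, and -7.23 ± 0.53 and then -8.79 ± 0.80 in MRL. Loxl1 was at -8.61 ± 0.67 before and -6.00 ± 0.65 after injury in C57, and at -9.24 ± 1.48 and -8.33 ± 0.56 in MRL. Bmp1 in injured MRL tendon was at -6.68 ± 0.43, below every library of the other groups, which had -5.69 ± 0.29 in uninjured MRL, -5.71 ± 0.28 in uninjured C57 and -5.46 ± 0.34 in injured C57 tendon. Lox had -2.44 ± 0.27 in uninjured and -2.44 ± 0.46 in injured C57, and -2.86 ± 1.01 in uninjured and -2.30 ± 0.65 in injured MRL tendon. Without the libraries numbered 4 (SD, n = 3) the uninjured C57 and MRL ratios were -2.02 ± 0.24 and -2.51 ± 0.24 for Pcolce2, -7.33 ± 0.23 and -7.45 ± 0.35 for Loxl4 and -5.82 ± 0.21 and -5.77 ± 0.30 for Bmp1. Those of Loxl1 were -8.40 ± 0.65 and -9.70 ± 1.42, and those of Lox -2.31 ± 0.12 and -3.31 ± 0.55. The gap between uninjured and injured MRL tendon was thus wider for Lox and Loxl1, and narrower for Pcolce2, than with all libraries. These ratios show unequal change of 2 transcripts within a library and were not tested.

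**Figure D5:**
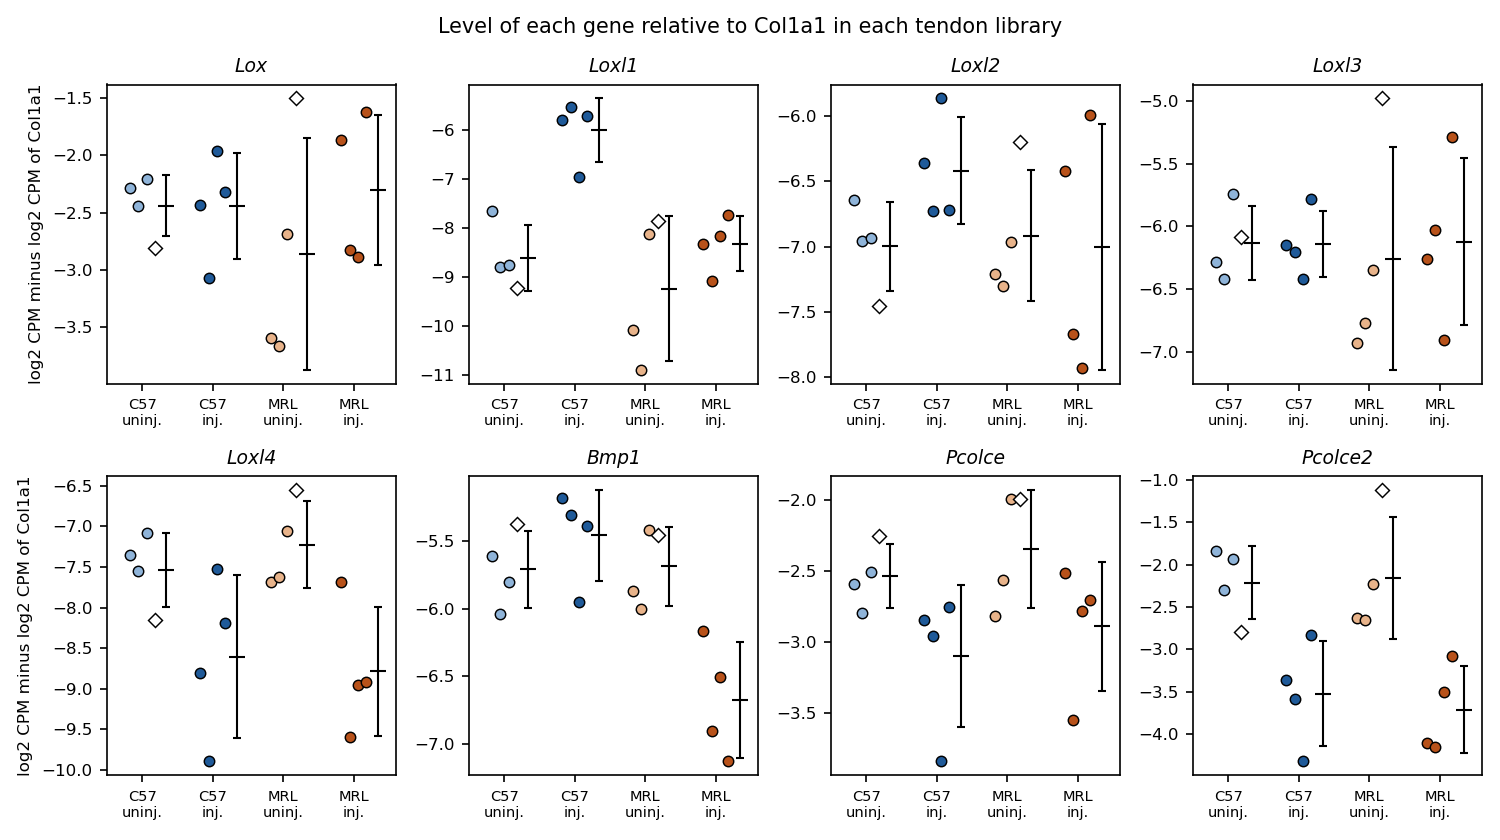
Log2 CPM of each gene minus log2 CPM of Col1a1 in each library, by group (circles; open diamonds are the uninjured libraries numbered 4; bars are mean ± SD over 4 libraries, and each panel has its own axis). Pcolce2 is lower in both injured groups (means of -3.53 and -3.71 against -2.22 and -2.16), and Loxl1 is highest in injured C57 tendon (mean of -6.00).

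Genes that act beside these 8 were counted over 7 lists. The 10 other procollagen proteinases held the BMP1 relatives Tll1 and Tll2, the N-proteinases Adamts2, Adamts3 and Adamts14, the meprins Mep1a and Mep1b, and the proprotein convertases Furin, Pcsk5 and Pcsk6. With 7 of them tested in each strain, none was called in C57 (1.07% of all genes) and 1 fell in MRL (7.41% of all genes), the convertase gene Pcsk6 (log2 fold change -1.35, SE 0.28, adjusted p = 0.0148, lost without BI-272). It was at -1.47 (adjusted p = 0.0218) without the library numbered 4. The median log2 fold change of the list was 0.47 in C57 and 0.15 in MRL, against -0.05 and -0.03 over all genes tested. Without the libraries numbered 4 the list medians were 0.66 and 0.69, against -0.006 and -0.009 over all genes tested. Tll1, the closest relative of Bmp1, had 2 to 49 counts in the injured C57 libraries and 0 counts in 3 of the 4 uninjured ones, so the depth behind it was low. Without the libraries numbered 4 Adamts2 was at -0.52 in C57 and -0.33 in MRL, and Adamts14 at 3.16 and 1.26. With all libraries Adamts2 was at -0.25 (SE 0.39) in C57 and -0.21 (SE 0.34) in MRL, and Adamts14 at 3.57 (SE 1.21, adjusted p = 0.217) and 1.19 (SE 0.61, adjusted p = 0.228), with at most 272 counts in any library, and neither passed the test.

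Of the 11 fibrillar procollagen chains, 10 were tested in each strain. None was called in C57, where 1.07% of all genes tested were, and 4 rose in MRL, where 7.41% of all genes were called. These were Col5a1 (1.53, SE 0.25, adjusted p = 0.00524), Col11a1 (1.58, SE 0.35, adjusted p = 0.0189), Col27a1 (1.30, SE 0.34, adjusted p = 0.0360) and Col3a1 (1.15, SE 0.31, adjusted p = 0.0405). Col3a1 encodes the collagen of early repair tissue, and its value in C57 was nearly the same, 1.14 (SE 0.46, adjusted p = 0.287). Col1a2 was at 0.59 (SE 0.33) in C57 and 0.93 (SE 0.38) in MRL without passing, or 0.46 and 0.70 without the libraries numbered 4. Col5a1 kept its call in all 8 leave-out fits (1.23 to 1.63), Col11a1 lost it without uninjured replicate 3, and Col3a1 and Col27a1 each lost it in 6 of the 8, among them the fit without the uninjured library numbered 4 (adjusted p = 0.0895 and 0.0705). Between the injured groups, where 3.43% of all genes were called, 1 chain passed, Col11a1, higher in MRL by 2.25 (SE 0.46, adjusted p = 0.0256), and that call was lost in 5 of the 8 leave-out fits.

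The 16 genes of collagen hydroxylation and folding modify the chains before secretion, including the lysines that lysyl oxidases later oxidize. All 16 were tested. None was called in C57 (1.07% of all genes) and 3 rose in MRL (7.41% of all genes), namely the collagen prolyl 4-hydroxylase subunit P4ha3 (2.92, SE 0.44, 7.57-fold, adjusted p = 0.00380), the prolyl 3-hydroxylase P3h1 (1.09, SE 0.16, adjusted p = 0.00386) and the collagen chaperone Serpinh1 (1.29, SE 0.20, adjusted p = 0.00410). All 3 calls were kept with each library left out in turn. P4ha3 was also called in C57 once the uninjured library numbered 4, in which it had 0 counts, was left out. Between the injured groups (3.43% of all genes called) P4ha1 (1.33, SE 0.22, adjusted p = 0.0121) and P3h2 (1.00, SE 0.24, adjusted p = 0.0488) were higher in MRL, the latter in only 1 of 8 fits with 1 library left out.

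Among 8 binding partners of lysyl oxidases and BMP1, 1 was called in C57 and 3 in MRL, against 1.07% and 7.41% of all genes tested. Postn encodes periostin, a matrix protein that binds BMP1 and fibronectin. It was 4.23, 9.07, 6.94 and 4.15 CPM in uninjured C57 and 69.1, 1753, 1167 and 65.0 CPM in injured replicates 1 to 4. The log2 fold change of 6.91 (SE 1.25, adjusted p = 0.0466) lost its call in 7 of the 8 fits with 1 library left out, among them that without the library numbered 4 (6.77, adjusted p = 0.0848). In MRL it was at 3.06 (SE 1.25, adjusted p = 0.148). Fn1, which encodes fibronectin, rose by 1.68 in MRL (SE 0.41, adjusted p = 0.0277, lost in 5 of 8 fits with 1 library left out) and was at 1.70 in C57 (SE 0.43, adjusted p = 0.109), where it was called without the library numbered 4 (1.44, adjusted p = 0.0340). Efemp2, which encodes a fibulin that brings LOX to elastin, rose by 1.14 in MRL (SE 0.25, adjusted p = 0.0175), lost without BI-275 and without uninjured replicate 1, and was at 1.04 without the library numbered 4. Tnxb, which encodes tenascin X, fell by 2.51 on the log2 scale in MRL (SE 0.39, adjusted p = 0.00410). Between the injured groups Tnxb was lower in MRL than in C57 by 1.78 on the log2 scale (SE 0.41, adjusted p = 0.0430, lost in 7 of 8 fits with 1 library left out). It was the 1 gene of this list called in that comparison, where 3.43% of all genes tested were called.

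Of the 9 tested among 10 other substrates, 1 rose in MRL, Ltbp1 (1.18, SE 0.22, adjusted p = 0.00913, or 1.13 without the library numbered 4), which encodes a latent TGF-beta binding protein, and none was called in C57. Of 4 tested copper transport genes, 1 rose in MRL, the copper chaperone Atox1 (1.24, SE 0.26, adjusted p = 0.0145, under the minimum fold change without BI-275 and 1.28 without the library numbered 4). The shares of all genes called were again 1.07% in C57 and 7.41% in MRL. Of 7 TGF-beta ligands and early targets, Tgfb1 rose in MRL by 1.07 (SE 0.25, adjusted p = 0.0241, lost in 4 of the 8 leave-out fits) and Tgfb3 fell by 1.12 on the log2 scale (SE 0.30, adjusted p = 0.0386), the latter only with all 8 libraries or without BI-274. In C57 Tgfb1 was at 0.56 (SE 0.36, adjusted p = 0.496). Without the uninjured C57 library numbered 4, where 5.01% of all genes were called, the C57 calls in these lists were Col24a1, P4ha3, Fn1, Sfrp2 and Ogn, all higher, and Tnxb, lower. Without the uninjured MRL library numbered 4 (6.11% of all genes), Ctgf was also called in MRL. No gene of the 7 lists was called between the uninjured groups or in the interaction with all libraries. Without both libraries numbered 4, where 3.48% of all genes were called, there were 5 calls between the uninjured groups, with Col2a1, Col11a2 and P3h3 higher and Pcsk5 and Thbs1 lower in MRL, and again 0 in the interaction.

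The genes whose pattern was most like each member were found by the root mean square (RMS) difference of log2 CPM over the 16 libraries, each gene centred on its mean, among 15947 genes. The closest to Lox were Mcm6 (0.32), Calu (0.33) and Msn (0.34), against an RMS of 0.76 for Lox about its own mean. Loxl1 varied most (RMS 1.51), and its closest were Mfap5 (0.44), Prss23 (0.56) and Pirb (0.59). Loxl2 was closest to Calu (0.34), Eps8 (0.40) and Lrrc8c (0.40), so that Calu stood near both Lox and Loxl2. Loxl3 was closest to Gla (0.28), Col6a1 (0.29) and Bgn (0.30), and Loxl4 to Chrdl1 (0.45), Tcaf1 (0.45) and Pde3b (0.47). For Bmp1 the nearest were Gmip (0.30), Psap (0.30) and Jdp2 (0.32). Pcolce was nearest to Ddost (0.20), Cnpy3 (0.20) and Adk (0.22), and Pcolce2 to Ngef (0.17), Sdk2 (0.20) and Chst12 (0.28). These are likenesses over 4 groups that share libraries, including the 2 uninjured libraries numbered 4, and carry no test.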

How the data were processed

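Per the labels, the authors trimmed single-end 100 nt reads with Trimmomatic 0.36, aligned them with STAR 2.5.2b to GRCm38.p5, counted with featureCounts (Subread 1.5.0p3) and deposited whole-number counts per gene symbol, without normalization. The sources used here do not give the annotation or the strand setting that was used. The labels name a TruSeq kit, whereas the methods describe pre-amplification of low-input RNA. No molecular identifiers are named, so counting error understates technical error.

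The counts behind a member's value ranged from 70 to 69406. Each comparison was fitted on its own groups with edgeR 4.0.16 in R 4.3.3 (TMM factors, filterByExpr, robust quasi-likelihood test, Benjamini-Hochberg adjustment over all genes tested). A call needed an absolute log2 fold change over 1 together with an adjusted p under 0.05 (the latter alone in the interaction). The SE is the absolute log2 fold change divided by the square root of F. CPM use TMM-adjusted library sizes, and log2 CPM a prior count of 2. The fitting code was also run on simulated counts with large changes and no exchanged library. That run does not measure the error rate of the test on these libraries. The members and lists were chosen with earlier results of these data known. Named were the 8 members, 9 listed genes (Col1a1, Col1a2, Col3a1, Tll1, Adamts2, Adamts14, Postn, Fn1 and Tgfb1), up to 4 called genes of each list in a comparison and the 3 nearest genes of each member. List genes called without the libraries numbered 4 were named after their values were seen. Exons are those of GENCODE M21. Groups come from the labels, and the methods give 4 animals per group. The strain check was designed after the values were seen. Replicate numbers do not pair the uninjured strains. Alternatives were DESeq2 1.42.0, RLE factors, total counts, no filter, another fold rule, one fit of all 16 libraries, a replicate block and leaving out libraries.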

Additional observations from a re-analysis of the deposited data

Results flagged for a closer look

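Among the 32 sets of 4 values (8 genes in 4 groups), 2 had a library standing apart by Dixon's test at the 95% level. Chance gives about 1 in 20, so this count is near that share. Both were in the library labelled uninjured C57 replicate 4, with 66.4 CPM of Bmp1 and 398 CPM of Pcolce2. Its gap to the nearest library took up 0.839 and 0.896 of the range of the group. This is the library whose strain genes went against its label and which held 102361 CPM of epidermal markers, and their part in the low values was not tested.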

How the results depend on the processing

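Of 696 values of the 8 members under alternatives, 631 kept their direction and their side of the thresholds, 22 lost a call, 8 gained one and 35 changed sign. The number of members called in C57 was 0 to 2 with 1 library left out (1 as reported) and 2 without the uninjured library numbered 4, whether by DESeq2 or with no minimum fold change (both chosen after seeing the data). In MRL it was 1 to 3 with 1 library left out and 1 in one fit of all 16 libraries (3 as reported), and 4 with no minimum fold change, which added Pcolce2. In the fit of all 16 libraries Loxl1 had an adjusted p of 0.0541 and Loxl3 of 0.0727. On total counts Loxl3 was at 0.99, under the minimum fold change. Between the injured groups it was 0 to 1 with 1 library left out and 0 in the fit of all 16 libraries (1 as reported), with Loxl1 at an adjusted p of 0.0547. Between the uninjured groups it was 3 with no minimum fold change and neither library numbered 4, and 0 otherwise, and the interaction had 0 in each fit. The cause of these differences was not tested.

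The values that changed sign were all uncalled. With injury in C57, Loxl4 ranged from -1.08 to 0.061 and Pcolce from -0.14 to 0.24 with 1 library left out, and Pcolce was -0.020 (DESeq2) and -0.067 (no minimum fold change) without the uninjured library numbered 4. In MRL, Bmp1 ranged from -0.31 to 0.13, and Adamts2 from -0.43 to 0.069. Between the uninjured groups Lox ranged from -0.27 to 0.10 and Loxl1 from -0.53 to 0.23, and between the injured groups Loxl2 ranged from -0.27 to 0.45 and Loxl4 from -0.18 to 1.07. In the interaction Loxl2 ranged from -0.73 to 0.00218, Loxl4 from -0.88 to 0.44, Pcolce from -0.052 to 0.35 and Pcolce2 from -0.14 to 0.31, with -0.065 on total counts.

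With the replicate number as a block in the uninjured comparison, 0 members were called and Lox was at 0.038. The numbers share no animal, and the deviations of same-numbered libraries correlated between -0.26 and 0.02 with no library nearest to its own number, so the pairing was not used. Over all genes, counts of calls differed by more than 1.5 times from the reported ones with DESeq2 (C57 907 against 155, MRL 1818 against 1057, uninjured 104 against 0, injured 1488 against 502, interaction 198 against 0), with one fit of all libraries (C57 367, injured 227), with no filter (uninjured 1) and without both libraries numbered 4 (uninjured 497). Total counts moved the median of all genes from -0.05 to 0.08 in C57, from -0.06 to -0.20 between the injured groups and from -0.03 to -0.14 in the interaction. With 1 library left out, calls over all genes ranged from 10 to 750 in C57, from 689 to 1260 in MRL and from 231 to 481 between the injured groups. Low depth limits Tll1, at most 49 counts in a library, and the listed genes too low to be tested.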
